A study of Homo sapiens with 12 samples.

Results

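The FGF2 and ERK feedback genes are 10 genes of 1 signalling loop, taken by symbol from the 53717 genes of the count table, where all 10 were found. They are the ligand FGF2, its receptor FGFR1, the Sprouty-type inhibitors SPRY2, SPRY4 and SPRED1, the phosphatases DUSP4, DUSP5 and DUSP6, and the ETS factors ETV4 and ETV5. All 10 passed the filter on low counts, which kept 17264 genes. Poly(A) RNA came from H9, an established human embryonic stem cell line, grown in RSeT, a medium sold for naive-type culture (composition not given in the sources used here). Cells were transfected by lipofection with 25 nM of 1 of 3 fluorescein-labelled oligos, and fluorescent cells were sorted 48 h later. The 3 groups were ASO-Ctr, a non-targeting antisense oligo, sO-L1, a sense oligo to the retrotransposon LINE1, and ASO-L1, the antisense oligo to LINE1, with 4 replicates each. Cells of every group, the controls included, also received 0.7 uM Trans-ISRIB (an inhibitor of the integrated stress response), 5 uM emricasan (a caspase inhibitor) and 10 uM Y-27632 (a ROCK inhibitor), all taken out after 24 h. All libraries came from 1 cell line and from cells that took up oligo, the labels do not say whether replicates were separate cultures, and the RNA of LINE1 itself was not analysed here.

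Fibroblast growth factors bind receptor tyrosine kinases on the cell surface, and the receptors switch on RAS, which starts a relay of the kinases RAF, MEK and ERK. Active ERK induces its own inhibitors: Sprouty and Spred proteins act upstream at the level of RAS and RAF, and dual-specificity phosphatases remove the phosphates that activate ERK. The PEA3-type ETS factors ETV4 and ETV5 are classic readouts of FGF signalling. In human embryonic stem cells, FGF2 supports the primed state, which resembles the embryo after implantation, while naive media usually block this pathway. Messenger RNA levels of these genes are often read as a gauge of the pathway, but phosphorylated ERK was not measured here.

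Promoters of 5 of the 10 genes (FGF2, DUSP6, SPRY2, SPRY4 and SPRED1) were matched in the RefSeq table used (assembly GRCh38.p14), and 4 are printed because their genes rose with ASO-L1 by different amounts. Each line holds the 250 bases before the annotated start, 5′ to 3′ on the strand of the gene. Capitals mark a match to CCGGAA, a motif of ETS factors such as ETV4. Their shorter core GGAA, which this motif contains, was not searched for on its own and is not marked. The windows are chr4:122826581-122826830 on the plus strand for FGF2, and, on the minus strand, chr12:89352502-89352751 for DUSP6, chr13:80341127-80341376 for SPRY2 and chr5:142324248-142324497 for SPRY4.
FGF2: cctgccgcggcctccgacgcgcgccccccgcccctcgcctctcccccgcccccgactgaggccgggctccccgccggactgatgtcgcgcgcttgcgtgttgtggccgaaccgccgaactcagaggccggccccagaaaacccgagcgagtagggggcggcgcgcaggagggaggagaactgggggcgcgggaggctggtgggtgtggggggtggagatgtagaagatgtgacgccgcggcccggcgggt
DUSP6: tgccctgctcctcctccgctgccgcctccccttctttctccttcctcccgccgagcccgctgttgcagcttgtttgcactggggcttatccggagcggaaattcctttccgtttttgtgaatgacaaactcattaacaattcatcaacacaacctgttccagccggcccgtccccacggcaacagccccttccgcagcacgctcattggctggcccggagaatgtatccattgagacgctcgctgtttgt
SPRY2: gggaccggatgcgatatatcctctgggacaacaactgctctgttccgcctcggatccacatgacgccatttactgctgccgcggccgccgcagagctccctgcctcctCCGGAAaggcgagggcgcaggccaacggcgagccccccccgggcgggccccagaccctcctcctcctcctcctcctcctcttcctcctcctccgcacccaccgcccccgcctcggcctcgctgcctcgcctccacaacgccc
SPRY4: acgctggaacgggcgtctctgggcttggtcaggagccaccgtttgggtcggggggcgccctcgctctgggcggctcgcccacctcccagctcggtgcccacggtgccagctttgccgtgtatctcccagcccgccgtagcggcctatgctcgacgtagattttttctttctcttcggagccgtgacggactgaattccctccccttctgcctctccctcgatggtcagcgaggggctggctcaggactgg

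These windows were searched on both strands for 3 motifs, CCGGAA, the AP-1 motif TGANTCA and the CRE motif TGACGTCA, none of which contains another. Among the windows of the 5 matched genes only that of SPRY2 held one, a CCGGAA whose first base lies 142 bases before the start. Those of FGF2, DUSP6, SPRY4 and SPRED1 held none of the 3. Only the window listed first for each gene was searched, and any other annotated start was left out. Of 35116 RefSeq promoter windows of this length, 14.5% hold CCGGAA, 6.57% TGANTCA and 1.65% TGACGTCA. A match is a string of letters and shows no binding.

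Libraries held 22.8 to 55.1 M counts, so that 3 counts, the limit that a count of 0 allows, stood for 0.0545 to 0.131 counts per M counts (CPM), for counting error only. All 10 embryonic stem cell markers passed the filter. Their summed level was 10424.6 to 10580 CPM in ASO-Ctr, 10222 to 10881 in sO-L1 and 9279 to 9663 in ASO-L1. Much of the change in this sum is DNMT3B, which had means of 2505 CPM in ASO-Ctr and 1764 in ASO-L1. Against ASO-Ctr, DNMT3B, LIN28A, L1TD1 and ZFP42 were called lower in ASO-L1 and DPPA4 higher. POU5F1, NANOG, SOX2, LIN28B and TDGF1 were not called. Of 10 naive markers 8 passed, with sums of 109 to 162, 114 to 178 and 139 to 199 CPM. KLF17 and ARGFX reached at most 0.491 and 0.103 CPM in any library, at or near 0. NLRP7, DPPA3, TFCP2L1 and KLF4 had means of 35.5, 30.5, 20.4 and 20.1 CPM in ASO-Ctr. Of the 8, KLF4, KLF5, DPPA3, TFCP2L1 and DNMT3L were called higher in ASO-L1 than in ASO-Ctr. DPPA5 and NLRP7 were called lower, and SUSD2 was not called. Of 10 primed markers 9 were found, all tested, and their sums were 780 to 882 CPM in ASO-Ctr, 777 to 867 in sO-L1 and 1100.5 to 1373 in ASO-L1. That list holds FGF2 and DUSP6, and much of its change is VIM, which had means of 122 CPM in ASO-Ctr and 415 in ASO-L1. The neuroectoderm list (2 of 6 tested, mostly NES) summed to 392 to 453, 424 to 528 and 527 to 604 CPM, and the mesoderm list (2 of 7 tested) to 14.1 to 18.1, 15.2 to 19.6 and 18.6 to 30.8. Endoderm markers (3 of 7 tested) summed to 21.1 to 28.2, 22.8 to 31.3 and 13.9 to 22.9 CPM, with PDGFRA lower in ASO-L1 than in ASO-Ctr (log2 -0.90), FOXA2 higher (1.21) and CXCR4 not called (-0.10). Trophectoderm markers (3 of 8 tested) summed to 50.8 to 59.1, 51.1 to 62.5 and 52.5 to 65.1. Most of that was TFAP2C, at 47.6 to 61.9 CPM over all libraries, and CDX2 and VGLL1 were at 0. Fibroblast markers (5 of 8 tested) summed to 232 to 251, 218 to 238 and 190 to 231 CPM. Most of that was FBLN1 (140 to 185 CPM over all libraries) and COL1A2 (31.8 to 69.6). LUM was at 0 and COL3A1 at most 0.0655. Amnion markers (3 of 4 tested) summed to at most 2.51. The part of these shifts in the results below was not tested, and in bulk RNA more cells of a kind and more RNA per cell cannot be told apart.

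The first comparison sets the antisense LINE1 oligo against the non-targeting one. Of the 10 genes, 9 rose with ASO-L1, 0 fell and 1, ETV5, did not pass the test, with an adjusted p under 0.05 in edgeR taken as a call. Over all 17264 genes tested, 44.3% were called, 21.2% higher and 23.1% lower. The median log2 fold change of the 10 was 0.43, against -0.00279 for all genes. Rises of more than 1.5-fold were made by DUSP4, DUSP5, ETV4 and SPRY4, 4 of the 10, and by 5.59% of all genes. Against sO-L1, the second control, 9 again rose, 0 fell and ETV5 did not pass, where 44.0% of all genes were called, 21.1% higher and 22.9% lower. The median there was 0.54 against -0.00321, and 5 of the 10 passed 1.5-fold, DUSP6 being the fifth, against 5.49% of all genes. The comparisons share the ASO-L1 libraries and are therefore not independent of each other.

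**Figure D1:**
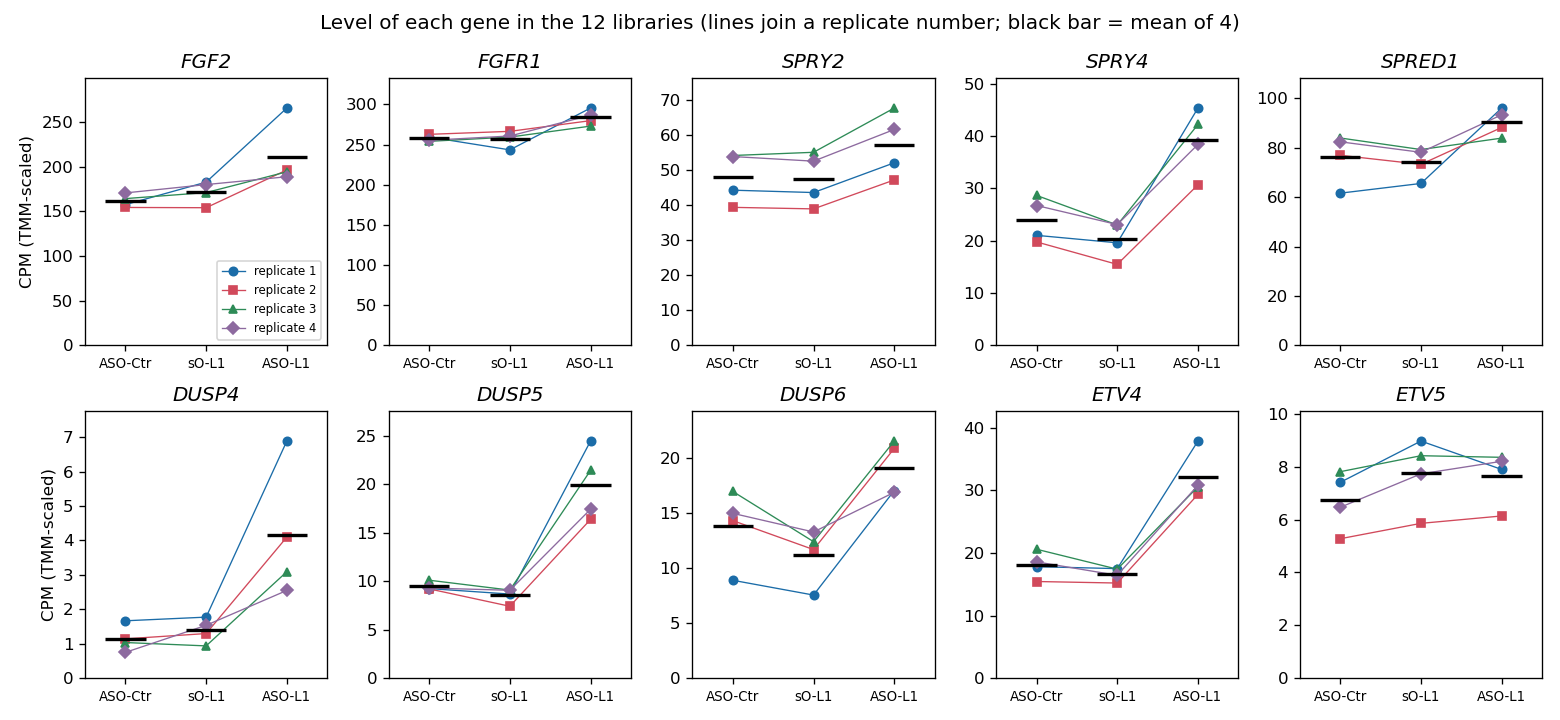
Level of each of the 10 genes in all 12 libraries, in TMM-scaled CPM on an axis from 0; lines join libraries of 1 replicate number and black bars are means of 4. ASO-L1 lies above both controls in all 4 replicate numbers for DUSP4, DUSP5, DUSP6, SPRY2, SPRY4, ETV4, FGF2 and FGFR1, and ETV5 shows no such step.

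FGF2, the ligand that human embryonic stem cell media supply as a growth factor, stood at 157, 154, 164 and 171 CPM in ASO-Ctr replicates 1 to 4. In sO-L1 it was 183, 154, 171 and 180 CPM, and in ASO-L1 266, 196, 194 and 189. Every ASO-L1 library was above every control library, and replicate 1 of ASO-L1 was far above its 3 fellows. FGF2 rose 1.30-fold over ASO-Ctr (95% interval 1.17 to 1.44, adjusted p = 0.000419) and 1.22-fold over sO-L1 (1.10 to 1.36, adjusted p = 0.00302). With the ASO-L1 replicate 1 library left out, the log2 difference for FGF2 was 0.27 against ASO-Ctr (adjusted p = 5.96e-07) and 0.18 against sO-L1 (0.000318), in place of 0.37 and 0.29.

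NUDT6 lies opposite FGF2 on the other strand and overlaps it, and whether counting used strand is not stated in the sources used here. Its reads were 1.67% of those of FGF2 over the 12 libraries. NUDT6 had means of 2.61 ± 0.334, 2.92 ± 0.183 and 3.49 ± 0.553 CPM (SD, n = 4) in ASO-Ctr, sO-L1 and ASO-L1. It rose 1.34-fold over ASO-Ctr (adjusted p = 0.0232), and against sO-L1 the ratio was 1.19 (0.971 to 1.45, adjusted p = 0.156).

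FGFR1, the FGF receptor that binds FGF2, was at 259, 263, 254 and 255 CPM in ASO-Ctr, 243, 266, 259 and 261 in sO-L1, and 295, 280, 273 and 287 in ASO-L1. Its groups did not overlap, yet the step was the smallest of the 9 rises. It was 1.10-fold over ASO-Ctr (1.04 to 1.17, adjusted p = 0.0123) and 1.10-fold over sO-L1 (1.04 to 1.17, adjusted p = 0.0112). Both calls on FGFR1 are near the threshold: without replicate 3 the adjusted p against ASO-Ctr was 0.0519, and without the sO-L1 replicate 1 library that against sO-L1 was 0.0560. LETM2, opposite FGFR1, had 1.02% of its reads and rose by 0.84 on the log2 scale over ASO-Ctr (adjusted p = 0.000267).

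Sprouty and Spred proteins inhibit the pathway between receptor and RAF. SPRY4, a Sprouty protein, stood at 21.0, 19.8, 28.7 and 26.7 CPM in ASO-Ctr, 19.6, 15.5, 23.0 and 23.1 in sO-L1, and 45.3, 30.7, 42.2 and 38.4 in ASO-L1. The lowest ASO-L1 library exceeded the highest control library, and replicate 2 was the lowest in each group. SPRY4 rose 1.62-fold over ASO-Ctr (1.44 to 1.83, adjusted p = 3.10e-06) and 1.94-fold over sO-L1 (1.72 to 2.18, adjusted p = 1.29e-07).

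SPRY2, a close relative of SPRY4, was at 44.2, 39.3, 54.1 and 53.8 CPM in ASO-Ctr, 43.5, 38.9, 55.0 and 52.4 in sO-L1, and 52.0, 47.1, 67.6 and 61.5 in ASO-L1. Here the groups overlapped, because replicate numbers 3 and 4 were higher than 1 and 2 in all 3 groups, while ASO-L1 was the highest group within each number. SPRY2 rose 1.19-fold over ASO-Ctr (1.11 to 1.28, adjusted p = 0.000343) and 1.20-fold over sO-L1 (1.12 to 1.29, adjusted p = 0.000213). The SPRY2 calls rest on comparing libraries within a replicate number: in the fit without the replicate block the adjusted p was 0.144 and 0.124.

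SPRED1, which brings the RAS inhibitor neurofibromin to the membrane, was at 61.6, 76.9, 83.9 and 82.4 CPM in ASO-Ctr, 65.5, 73.3, 79.3 and 78.1 in sO-L1, and 96.1, 88.2, 83.9 and 93.3 in ASO-L1. The groups overlapped against ASO-Ctr, where replicate 3 had the same level in both, but not against sO-L1. SPRED1 rose 1.19-fold over ASO-Ctr (1.07 to 1.32, adjusted p = 0.00918) and 1.23-fold over sO-L1 (1.10 to 1.36, adjusted p = 0.00330). Replicate 1 carried much of it: without that number the log2 difference from ASO-Ctr was 0.14 (adjusted p = 0.00931) in place of 0.25, and without the ASO-Ctr replicate 1 library alone it was 0.17 (0.0581). Without the ASO-L1 replicate 1 library it was 0.15 (0.00548), and 0.19 in place of 0.29 against sO-L1 (0.000734).

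Dual-specificity phosphatases switch ERK off, DUSP6 in the cytoplasm and DUSP4 and DUSP5 in the nucleus. DUSP4 was the scarcest of the 3 in reads, at 26 to 48 counts per library in ASO-Ctr, 32 to 73 in sO-L1 and 88 to 191 in ASO-L1. Its level was 1.67, 1.15, 1.04 and 0.753 CPM in ASO-Ctr, 1.78, 1.30, 0.941 and 1.54 in sO-L1, and 6.88, 4.10, 3.09 and 2.55 in ASO-L1. Every ASO-L1 library was above every control, with replicate 1 the highest in each group. DUSP4 rose 3.52-fold over ASO-Ctr (2.65 to 4.66, adjusted p = 1.00e-06) and 2.91-fold over sO-L1 (2.24 to 3.79, adjusted p = 3.25e-06), the largest fold of the 10 in both comparisons.

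DUSP5, whose product holds ERK in the nucleus as well as inactivating it, was at 9.25, 9.21, 10.1 and 9.30 CPM in ASO-Ctr, 8.68, 7.42, 9.09 and 9.07 in sO-L1, and 24.4, 16.4, 21.4 and 17.4 in ASO-L1. The ASO-L1 libraries lay well clear of both controls. DUSP5 rose 2.07-fold over ASO-Ctr (1.81 to 2.37, adjusted p = 1.97e-07) and 2.31-fold over sO-L1 (2.02 to 2.64, adjusted p = 4.83e-08).

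DUSP6, the cytoplasmic ERK phosphatase most often used as a readout of FGF signalling, was at 8.90, 14.3, 17.0 and 14.98 CPM in ASO-Ctr, 7.56, 11.7, 12.4 and 13.3 in sO-L1, and 17.0, 20.9, 21.5 and 16.9 in ASO-L1. The groups overlapped slightly against ASO-Ctr, where replicate 3 of the control matched the lowest ASO-L1 libraries, and were apart against sO-L1. DUSP6 rose 1.40-fold over ASO-Ctr (1.20 to 1.63, adjusted p = 0.00114) and 1.72-fold over sO-L1 (1.48 to 2.01, adjusted p = 1.45e-05). In the fit without the replicate block the DUSP6 call against ASO-Ctr was lost (adjusted p = 0.0532).

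ETV4 and ETV5 are paralogous ETS transcription factors. ETV4 was at 17.8, 15.4, 20.6 and 18.6 CPM in ASO-Ctr, 17.5, 15.2, 17.4 and 16.4 in sO-L1, and 37.8, 29.3, 30.6 and 30.8 in ASO-L1. The groups were far apart. ETV4 rose 1.77-fold over ASO-Ctr (1.59 to 1.97, adjusted p = 2.28e-07) and 1.93-fold over sO-L1 (1.73 to 2.15, adjusted p = 5.55e-08). DHX8, an RNA helicase gene that overlaps ETV4 on the other strand, had more reads than it, 329% of its total over the 12 libraries. DHX8 itself moved little (log2 0.0480, adjusted p = 0.468 against ASO-Ctr, and 0.0711, adjusted p = 0.269 against sO-L1), and how reads of the overlap were assigned is not stated in the sources used here.

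ETV5 was at 7.41, 5.28, 7.81 and 6.46 CPM in ASO-Ctr, 8.97, 5.86, 8.41 and 7.73 in sO-L1, and 7.89, 6.13, 8.35 and 8.20 in ASO-L1. The 3 groups overlapped, and replicate 2 was the lowest in each. The ratio was 1.14 over ASO-Ctr (1.001 to 1.30, adjusted p = 0.0946) and 0.994 over sO-L1 (0.876 to 1.13, adjusted p = 0.947). The interval against sO-L1 leaves out a rise of the size seen for its paralogue ETV4, though a difference between ETV4 and ETV5 was not tested. Against ASO-Ctr, ETV5 would be called without the ASO-L1 replicate 1 library (adjusted p = 0.0449) and by limma on the authors' log2 table (0.0214).

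**Figure D2:**
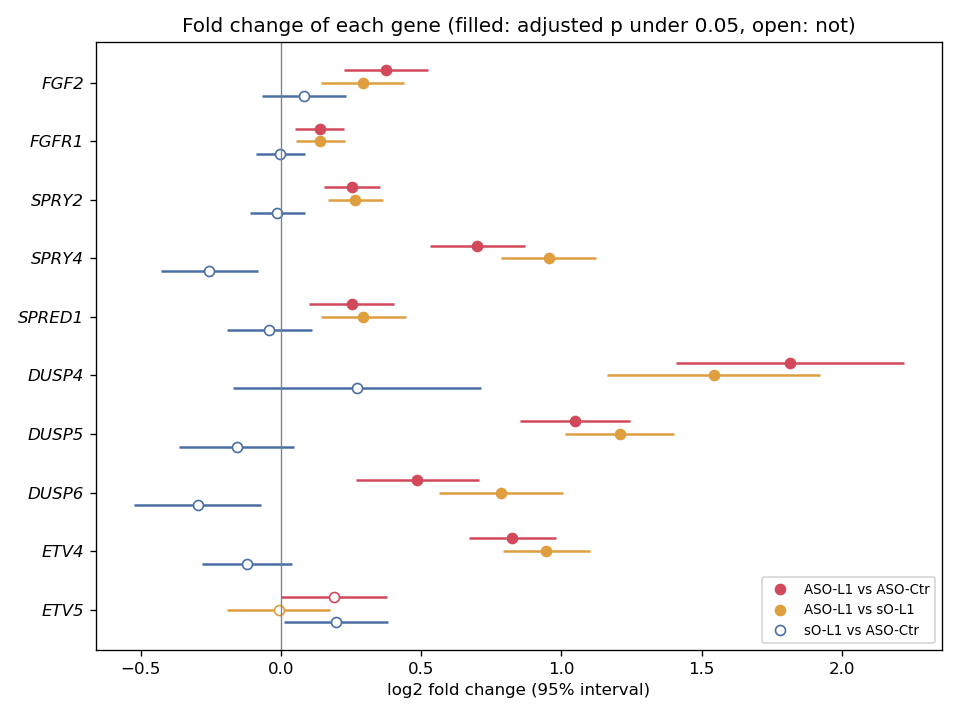
Log2 fold change of each gene in the 3 comparisons, with 95% intervals from the edgeR fit; filled points had an adjusted p under 0.05. The ASO-L1 points lie right of 0 for 9 genes, from 0.14 for FGFR1 to 1.81 for DUSP4, and no sO-L1 against ASO-Ctr point is filled.

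The CPM of the groups did not overlap for 6 of the 10 genes against ASO-Ctr (FGF2, FGFR1, SPRY4, DUSP4, DUSP5 and ETV4) and for 8 against sO-L1 (these, SPRED1 and DUSP6), where 33.3% and 32.1% of all genes tested had groups that did not overlap. Within replicate numbers, 17 of the 18 calls had the same direction in all 4 numbers. The exception was SPRED1 against ASO-Ctr, at -0.00083 in replicate 3. For 8 of the 10 genes the difference was highest in replicate 1 in both comparisons, SPRY2 and ETV5 being the others. The same held for 63.3% of the 3668 genes called higher against ASO-Ctr and 62.7% of the 3644 against sO-L1. Without replicate 1, the log2 difference from ASO-Ctr was 0.25 for FGF2, 1.73 for DUSP4, 0.94 for DUSP5, 0.37 for DUSP6 and 0.58 for SPRY4, and 9 of the 10 genes were again called higher.

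**Figure D3:**
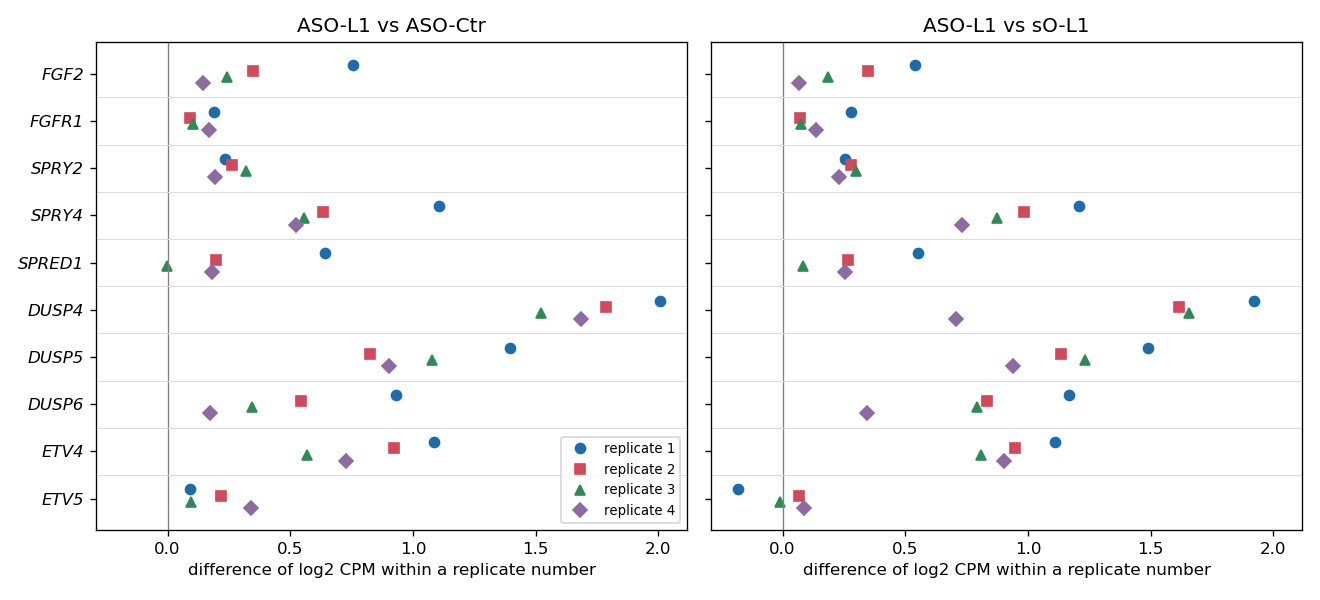
Difference of log2 CPM between ASO-L1 and each control within a replicate number, 1 symbol per number. Replicate 1 (circles) is farthest right for 8 of the 10 genes in both panels, and apart from SPRED1 in replicate 3 (left panel) and ETV5 (right panel) no point lies left of 0.

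The authors' deposited table compares ASO-L1 with sO-L1 in their own fit. In that table FGF2 had a log2 fold change of 0.29 (adjusted p = 0.00562) and FGFR1 0.14 (0.0169). The authors' deposited table gives 0.95 for SPRY4 (6.96e-06), 0.27 for SPRY2 (0.0262) and 0.28 for SPRED1 (0.00350). The phosphatases stand in the authors' deposited table at 1.60 for DUSP4 (1.15e-06), 1.20 for DUSP5 (1.60e-07) and 0.76 for DUSP6 (0.000371). ETV4 is at 0.95 (1.82e-07) and ETV5 at 0.00686 (0.979) in the authors' deposited table. The same 9 genes are thus under 0.05 in the authors' table and in the fit of the counts.

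sO-L1 against ASO-Ctr asks whether the controls differ from each other. For the 10 genes 0 were called in edgeR, where 0.290% of all genes were (0.0695% higher and 0.220% lower), and their median log2 fold change was -0.0267. At an unadjusted p under 0.05 there were 3 (7.14% of all genes): SPRY4, DUSP6 and ETV5. SPRY4 was lower with sO-L1 in 4 of 4 replicate numbers (ratio 0.838, 0.743 to 0.945, adjusted p = 0.369) and so was DUSP6 (0.814, 0.696 to 0.951, adjusted p = 0.469). ETV5 was higher in 4 of 4 (1.15, 1.01 to 1.30, adjusted p = 0.656). The groups did not overlap for 1 gene, DUSP5 (0.896, 0.777 to 1.03, adjusted p = 0.824), as for 3.23% of all genes. When the fit held only the libraries of these 2 groups, SPRY4 and DUSP6 were called lower (adjusted p = 0.00151 and 0.00427). Without replicate 1, SPRY4 was called (0.00543). DESeq2 and limma on the authors' log2 table called 0 of the 10.

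Around the 10 genes, a list of 89 other genes of the pathway was read in the same fit, of which 86 were tested. Against ASO-Ctr 28 rose, 29 fell and 29 did not pass, with a median log2 fold change of -0.0520. Against sO-L1 the counts were 29, 28 and 29, with a median of 0.0702. The list as a whole thus moved in both directions, and its subgroups, whose difference was not tested, are given 1 by 1 and in the plot of pathway genes by subgroup. The counts of each stand beside 21.2% higher and 23.1% lower over all genes against ASO-Ctr, and 21.1% and 22.9% against sO-L1. Values below are against ASO-Ctr unless stated, and ± is the SD of 4 libraries.

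**Figure D4:**
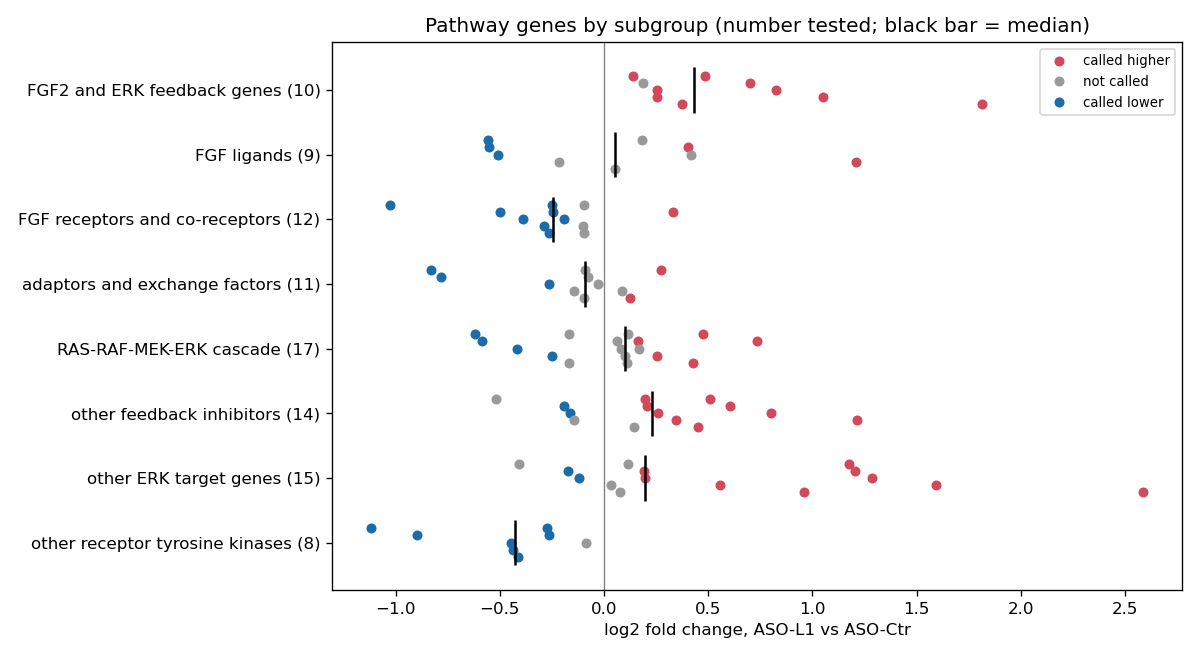
Log2 fold change, ASO-L1 against ASO-Ctr, of the 10 genes (top) and of the other pathway genes by subgroup, with the number tested in brackets; colours mark edgeR calls and black bars are medians. Other feedback inhibitors and other ERK target genes have medians of 0.23 and 0.20. FGF receptors and co-receptors have a median of -0.25, and other receptor tyrosine kinases of -0.43.

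Other feedback inhibitors rose in 9 of 14 tested and fell in 2, so that 78.6% were called against 44.3% of all genes, with a median log2 fold change of 0.23. This count is not one of ERK feedback alone, because the list also holds inhibitors with other main targets, such as DUSP8 and ERRFI1. Its called Sprouty and Spred genes, SPRY1 and SPRED2, moved in opposite directions. DUSP8, a phosphatase that acts mainly on JNK and p38 kinases, rose from 5.15 ± 0.669 CPM to 12.3 ± 4.46 (2.32-fold, adjusted p = 1.15e-06). DUSP3, another dual-specificity phosphatase, rose from 36.0 ± 2.93 to 63.0 ± 8.41 CPM (1.74-fold, adjusted p = 3.42e-08), DUSP1 1.52-fold (7.81e-05) and ERRFI1, an inhibitor of the EGF receptor, 1.37-fold (1.57e-05). SPRY1 rose 1.14-fold (adjusted p = 0.00824). The 2 that fell were SPRED2 (log2 -0.19, adjusted p = 0.00889) and IL17RD (-0.16, 0.0155), the latter an FGF signalling inhibitor also called Sef. DUSP9 was scarce and did not pass (log2 -0.52, adjusted p = 0.226). Against sO-L1, 8 rose and 1, SPRED2, fell (log2 -0.19, adjusted p = 0.00810).

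Other ERK target genes rose in 9 of 15 and fell in 2 (73.3% called, 44.3% of all genes), with a median of 0.20. FOSL1, an AP-1 subunit, went from 0.965 ± 0.181 to 6.13 ± 2.85 CPM (6.02-fold, adjusted p = 1.25e-08), and EPHA2, an ephrin receptor, from 13.2 ± 2.33 to 40.1 ± 7.63 (3.01-fold, 8.60e-08). PHLDA1 rose 2.26-fold (adjusted p = 1.45e-07) and the cytokine LIF 2.44-fold (6.31e-07). Those that fell were EPHA4 (log2 -0.17, adjusted p = 0.0407) and CCND1, the cyclin D1 gene (-0.12, 0.0424). The immediate early gene EGR1 did not pass (log2 -0.41, adjusted p = 0.0699). EGR1 would be called lower without replicate 2 (log2 -0.64, adjusted p = 0.00999) or without the ASO-Ctr (-0.56, 0.0189) or ASO-L1 (-0.59, 0.0105) library of that number. The same holds with no low-count filter (adjusted p = 0.0176) and for limma on the authors' log2 table (0.0465). Against sO-L1 the counts were again 9 and 2 of 15, with EGR1 called lower (log2 -0.55, adjusted p = 0.0149) beside EPHA4 (-0.17, 0.0407).

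FGF family genes other than FGF2 were split, with 2 of 9 higher and 3 lower (55.6% called, 44.3% of all genes). Those counted include FGF11, FGF12 and FGF13, which encode intracellular FGF homologous factors and not secreted ligands. FGF18 rose from 0.506 ± 0.199 to 1.13 ± 0.186 CPM (2.32-fold, adjusted p = 0.00102) and FGF19 from 5.75 ± 1.61 to 7.49 ± 0.969 (1.32-fold, 0.00785). FGF4, a ligand made by pluripotent cells, fell in all 4 replicate numbers (log2 -0.55, adjusted p = 4.92e-05), and FGF12 (-0.51, 0.00482) and FGF1 (-0.55, 0.00667) fell too. Against sO-L1, FGF18 rose (log2 1.01, adjusted p = 0.00297), and FGF4 (-0.69, 4.47e-06), FGF12 (-0.55, 0.00247) and FGF1 (-0.81, 0.000239) fell.

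Of 12 receptors and co-receptors for FGF 8 fell and 1 rose, where 23.1% of all genes were called lower and 21.2% higher, with a median log2 of -0.25. FGFR2 fell from 130 ± 6.81 to 114 ± 8.80 CPM (log2 -0.19, adjusted p = 0.00103) and FGFR4 from 77.8 ± 8.37 to 63.4 ± 2.42 (-0.29, 0.000989), while FGFR3 did not pass (-0.0981, 0.263). Glypican GPC6, a cell surface heparan sulphate carrier, had the largest fall (log2 -1.02, adjusted p = 1.71e-07), followed by the syndecans SDC3 (-0.50, 0.000261) and SDC1 (-0.39, 0.000135). SDC4 alone rose (log2 0.33, adjusted p = 2.44e-05). The counts against sO-L1 were also 8 and 1, with SDC4 the riser (log2 0.35, adjusted p = 1.41e-05).

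Adaptors and exchange factors had 2 of 11 higher and 3 lower, 45.5% called and so near the 44.3% of all genes. SOS1, which loads RAS with GTP, fell from 49.5 ± 2.49 to 28.0 ± 5.07 CPM (log2 -0.83, adjusted p = 7.89e-08), and NF1, neurofibromin, which turns RAS off, from 68.9 ± 6.76 to 40.2 ± 6.01 (-0.78, 3.34e-08). FRS2, the docking protein of FGF receptors, rose (log2 0.27, adjusted p = 0.00309), as did PTPN11, the phosphatase SHP2 (0.13, 0.0403). Without the ASO-L1 replicate 1 library PTPN11 was at 0.0780 (adjusted p = 0.0790) against ASO-Ctr and 0.0691 (0.123) against sO-L1, and without replicate 1 FRS2 was at 0.17 (0.00315). GAB1, another docking protein, was at 38.9 ± 1.38 CPM in ASO-Ctr, 25.9 ± 1.80 in sO-L1 and 32.4 ± 1.34 in ASO-L1. It was lower than ASO-Ctr with ASO-L1 (log2 -0.27, adjusted p = 0.00207) and with sO-L1 (-0.59, 0.000109), and higher with ASO-L1 than with sO-L1 (0.32, 0.000526). GAB1 was the 1 gene of the 86 called between the controls. Against sO-L1 3 of the 11 rose (GAB1, FRS2 and PTPN11, the last at adjusted p = 0.0498) and 4 fell, namely SOS1, NF1, RASA1 (log2 -0.16, adjusted p = 0.0101) and GRB2 (-0.12, 0.0339).

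The kinase relay itself was mixed, with 5 of 17 higher and 4 lower (52.9% called, 44.3% of all genes). HRAS rose from 32.4 ± 2.56 to 43.5 ± 3.50 CPM (log2 0.43, adjusted p = 1.14e-05). MAP2K1, the gene of the ERK activator MEK1, fell from 66.4 ± 2.59 to 44.2 ± 6.54 CPM (log2 -0.59, adjusted p = 6.49e-06), with the scaffold KSR1 (-0.62, 4.97e-06) and RPS6KA2 (-0.42, 0.000752). The ERK-responsive ETS factors ELK4 (log2 0.74, adjusted p = 5.94e-05) and ELK3 (0.48, 0.000130), the RAF kinase ARAF (0.26, 0.00259) and RPS6KA1 (0.16, 0.00784) rose. Against sO-L1, 7 of the 17 rose and 3 fell, MAP2K1 and KSR1 among them.

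Of 8 other receptor tyrosine kinases listed, 7 fell against either control and 0 rose, where 23.1% and 22.9% of all genes were called lower. This list leaves out EPHA2 and EPHA4, also receptor tyrosine kinases, which were counted with the ERK target genes. There EPHA2 rose 3.01-fold over ASO-Ctr and EPHA4 fell (log2 -0.17). EGFR fell from 6.91 ± 1.37 to 3.14 ± 0.563 CPM (log2 -1.12, adjusted p = 5.02e-06), and PDGFRA from 15.3 ± 0.562 to 8.19 ± 0.774 (-0.90, 3.55e-07). ERBB3 (log2 -0.44, adjusted p = 2.62e-06) and KIT (-0.44, 1.07e-05) fell as well. Of the pathway genes named here, 9 lose their call against ASO-Ctr in the fit without the replicate block, with adjusted p from 0.0524 to 0.634: SPRY1, SPRED2, IL17RD, CCND1, EPHA4, FGF1, FGF19, PTPN11 and RPS6KA1. Against sO-L1 that fit loses FGF1, PTPN11, RASA1, GRB2, EGR1 and EPHA4, with adjusted p from 0.0811 to 0.411. Apart from FGF1, these genes also lose a call in at least 1 other refit, and SPRED2 against sO-L1 loses it without replicate 3 (adjusted p = 0.105) and without the sO-L1 replicate 3 library (0.0545).

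By shape over the 12 libraries, the genes most like FGF2 were YIPF4, SASS6 and POLR3F, with root mean square differences of 0.0547, 0.0550 and 0.0561 in log2 CPM centred on the mean of each gene. The SD of FGF2 over these libraries was 0.216. Those most like DUSP4 were PHLDA3, TNFRSF12A and PLAU, at 0.203, 0.243 and 0.285, where the SD of DUSP4 was 0.917. These are descriptions over libraries that share the contrast between oligos, and no test was made of them.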

How the data were processed

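The raw counts per gene were deposited by the authors with duplicate reads removed, per the labels; duplicate removal compresses abundant genes. The submitters' processing notes name the build hg19, featureCounts (Subread 1.5.0), TopHat2 2.0.13 and Trim Galore 0.4.0, and the annotation and strand setting are not stated in the sources used here. The authors also deposited log2 normalized, batch-corrected values (20187 genes) and a comparison table (20856 genes) with log2 fold changes and p-values; its moderated statistic and log odds, deposited scores, were not used.

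A model of group plus replicate number (the block) was fitted to the counts of all 12 libraries by edgeR 4.0.16 under R 4.3.3, with TMM scaling, filterByExpr at minimum count 10 (17264 genes kept) and two-sided quasi-likelihood F-tests. Adjusted p-values are Benjamini-Hochberg over these genes, called under 0.05. The biological coefficient of variation was 0.0634, with 6 residual degrees of freedom and a prior of 10.8. Intervals are 95% from the fit, CPM is TMM-scaled, and differences within a replicate number use a prior count of 2. The block was kept because, over 10549 genes whose mean count reached 200, all 12 same-number pairs of libraries from different groups deviated together (r from 0.216 to 0.725, threshold 0.1; median of other pairs -0.223). Replicates differed by more than counting error, with a chi-squared per gene of 3.00 to 29.0, and 0 pairs were identical. As the labels do not say that replicates were separate cultures, p-values measure the spread between these libraries, which may be technical. Simulated data for ASO-L1 against ASO-Ctr held 17001 genes, 50 changed per size. Called were 56% of 1.25-fold, 66% of 1.5-fold, 90% of 2-fold and 98.0% of 4-fold changes, and 0.0417% of unchanged genes. Far fewer genes were changed there than the 44.3% called in the real comparison. The spread between replicate numbers was set by hand, so rates in the real data may differ. Alternatives were no block, DESeq2 1.42.0, RLE size factors, library totals, no low-count filter, only the groups compared, limma 3.58.1 on the log2 table, and each replicate or library left out.

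The 10 genes, the pathway list (89 genes) and the marker lists were chosen with earlier results of these data known. Named are the 10 genes and NUDT6; of each pathway subgroup up to 4 called genes by smallest adjusted p, and all where 5 or fewer were called in 1 direction; always FGF4, FGFR2, FGFR3, FGFR4, SPRY1, DUSP9, EGR1 and CCND1; and the 3 genes nearest in shape to FGF2 and to the gene with the largest change. LETM2, DHX8 and markers with values were named after these were seen. Overlapping genes come from GENCODE v29. The values of 1 gene of the pathway list that this rule names are not reported here.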

Additional observations from a re-analysis of the deposited data

Results flagged for a closer look

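The level of FGF2 in ASO-L1 replicate 1 was 265.6 CPM, while the other 3 ASO-L1 libraries held 189 to 196, so that the gap was 0.901 of the whole range of the group, above the limit of Dixon's test at the 95% level. The level of DUSP5 in ASO-Ctr replicate 3 was 10.1 CPM, with the other 3 at 9.21 to 9.30 and a gap of 0.900 of the range. These were 2 of 30 gene and group combinations tested, and chance alone gives about 1 in 20. Without its high library FGF2 was still called against both controls, at the values given with it above.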

How the results depend on the processing

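The count of the 10 genes called higher was 7 to 10 against ASO-Ctr and 8 to 9 against sO-L1 over all alternatives; without the replicate block it was 7 and 8. Against ASO-Ctr it was 8 to 10 with libraries or replicates left out, and 8 to 9 against sO-L1. Leaving out the block changed no call of the 10 other than those given with DUSP6 and SPRY2. Of 570 refits of the 30 gene values, 548 kept direction and side of the threshold, 6 lost a call and 5 gained one. In 11 the sign turned, each for a gene not called and near 0 on the log2 scale. ETV5 against sO-L1 became 0.0524 without replicate 1, and 0.0326, 0.0387 and 0.000277 without sO-L1 replicate 1, ASO-L1 replicate 1 and ASO-L1 replicate 3, and ran from -0.0601 to 0.0524 over the 12 omissions. FGFR1 in sO-L1 against ASO-Ctr became 0.0111 by limma on the log2 table, 0.0310 without replicate 1, and 0.00268, 0.0354 and 0.00324 without ASO-Ctr replicate 1, sO-L1 replicate 1 and ASO-Ctr replicate 2 (range -0.0176 to 0.0354). In that comparison SPRED1 became 0.00945 without ASO-Ctr replicate 3 (range -0.120 to 0.00945) and SPRY2 0.00250 without ASO-Ctr replicate 4 (range -0.0308 to 0.00250). Between the controls, 2 of the 10 were called with only the 2 groups in the fit, and 0 to 1 with a replicate or library left out. Of the pathway genes 1 was called between the controls, 2 with DESeq2, 3 with no low-count filter, 3 with limma, 13 with only the 2 groups, and 1 to 4 with a replicate or library left out; the cause was not tested. Over all genes that comparison had 50 calls, 17 without the block, 89 with DESeq2, 141 with no filter, 209 with limma, 640 with only the 2 groups, and 10 to 241 with libraries left out. Pathway calls with ASO-L1 ran from 44 to 67 against ASO-Ctr and from 43 to 61 against sO-L1. Of 81 values of named pathway genes 16 lost their call in some refit and 0 turned sign. DUSP4, at 26 to 191 counts per library, has the widest interval of the 10.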
